A study of Mus musculus with 35 samples.

Results

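The glycerol-3-phosphate acyltransferases (GPATs) Gpam, Gpat3 and Gpat4 and the 1-acylglycerol-3-phosphate acyltransferases (AGPATs) Agpat1, Agpat2, Agpat3, Agpat4 and Agpat5 were followed through mouse adipocyte cultures. Members were the transcript clusters of the array annotated with 1 of these 8 symbols alone. All 8 genes were found, each on 1 cluster, among 15621 clusters with a single symbol and 17958 clusters in all. The arrays came from primary cultures of precursor cells isolated from the inguinal subcutaneous fat of SV129 and C57BL/6 mice, the second strain being labelled C57BL/6J. Untreated cultures were harvested at day 3 (4 arrays per strain) or at day 7 (control, 4 arrays per strain). Other day 7 cultures were labelled as treated with rosiglitazone (ROSI, 1 µM, 5 SV129 and 4 C57BL/6 arrays) or norepinephrine (NE, 1 µM, 5 arrays per strain). ROSI is an antidiabetic drug that activates the nuclear receptor PPARγ, and NE is the transmitter that activates adrenergic receptors on fat cells. All cultures shared a serum- and insulin-containing medium, and drugs were present from the first day. The protocol text lists both drugs for all samples alike, and which drug a culture received was taken from its own treatment label. The sources used here state neither age nor sex of the mice, and the cultures can hold cells that did not become adipocytes.

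GPATs add the first fatty acid to glycerol-3-phosphate, and AGPATs add the second, giving phosphatidic acid. Phosphatidic acid is then dephosphorylated toward triglyceride, the storage fat of adipocytes, or used for phospholipids. Gpam encodes the mitochondrial GPAT, while Gpat3 and Gpat4 encode enzymes of the endoplasmic reticulum. Agpat1 and Agpat2 encode the classical AGPATs of the endoplasmic reticulum. Loss of AGPAT2 in people causes congenital generalized lipodystrophy, a near absence of fat tissue. Agpat3, Agpat4 and Agpat5 encode further family members whose shares of the reaction in fat cells are less settled.

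Upstream sequence was available in the RefSeq tables (GRCm38.p6) for 6 of the 8 members, with 8 start sites. Each stretch below holds the 250 bases before an annotated start, and the gene strand is given with the position. They were searched on both strands for AGGTCA, the core motif recognised by PPARγ and many other nuclear receptors. The motif is shown in capitals, as TGACCT where it lies on the opposite strand. Gpat3 and Agpat2 are shown because their values moved most between groups, and Agpat1 and Gpam because their second start sites are the ones that hold a match.
Gpat3, chr5:100845979-100846228, plus strand: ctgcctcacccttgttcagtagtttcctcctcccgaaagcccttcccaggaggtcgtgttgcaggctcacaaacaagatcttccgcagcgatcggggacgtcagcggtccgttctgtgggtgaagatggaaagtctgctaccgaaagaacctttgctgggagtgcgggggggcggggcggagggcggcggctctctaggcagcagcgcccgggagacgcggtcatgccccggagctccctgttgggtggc
Agpat2, chr2:26604418-26604667, minus strand: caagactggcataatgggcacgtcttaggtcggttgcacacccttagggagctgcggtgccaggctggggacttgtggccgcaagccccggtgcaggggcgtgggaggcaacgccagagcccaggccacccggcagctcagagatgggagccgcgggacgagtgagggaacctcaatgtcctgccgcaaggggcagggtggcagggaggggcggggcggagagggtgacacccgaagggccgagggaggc
Agpat1, second start site, chr17:34608764-34609013, plus strand: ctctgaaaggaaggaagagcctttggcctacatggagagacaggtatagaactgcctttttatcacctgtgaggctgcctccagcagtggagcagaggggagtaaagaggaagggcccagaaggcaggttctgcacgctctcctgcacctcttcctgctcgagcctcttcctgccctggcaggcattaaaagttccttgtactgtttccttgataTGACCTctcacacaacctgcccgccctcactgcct
Gpam, second start site, chr19:55099478-55099727, minus strand: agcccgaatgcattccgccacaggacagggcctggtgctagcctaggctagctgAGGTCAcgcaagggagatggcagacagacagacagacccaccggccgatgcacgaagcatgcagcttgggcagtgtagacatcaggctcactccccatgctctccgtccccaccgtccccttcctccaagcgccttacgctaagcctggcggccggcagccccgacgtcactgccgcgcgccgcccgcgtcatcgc

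The match began 35 bases before the start of Agpat1 and 196 bases before that of Gpam. No match to these letters lay in the other 6 stretches, which include those of Agpat3 and Agpat4. Of 32851 promoter windows of the same length, 14.0% hold AGGTCA. None of the 8 member windows held the direct repeat of the motif with 1 base between, which 0.033% of all windows hold. A match describes the letters and is not a binding site.

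Values are log2 intensities summarised by RMA over all probes of a cluster, so a difference of 1 is a doubling. A cluster gives 1 value for all exons. A change confined to some exons, as the study examined for Agpat1, therefore cannot be told here from a change of the whole gene. Array medians lay between 8.03 and 8.24. Over all clusters 24 of 35 arrays were nearest to the mean of their own group. Of the other 11, 8 were control or NE arrays nearest to another control or NE group. The array labelled SV129 ROSI replicate 1 went against its label. Its root mean square distance was 0.107 from the SV129 NE group and 0.316 from its own, and its best match was SV129 NE replicate 4 (r = 0.9983). For all 8 members its value lay inside the SV129 NE range. SV129 ROSI replicate 6 stood between the treatments. On the first principal component of the control and ROSI arrays it lay at 0.76 and replicate 1 at -18.02. Controls lay between -26.24 and -18.59 and the ROSI arrays other than replicates 1 and 6 between 22.68 and 33.90. Both arrays were kept under their labels, and the main ROSI calls and changes are also given without replicate 1 or without both. The adipocyte markers Adipoq, Fabp4, Plin1, Cidec, Slc2a4, Pparg, Lpl and Lep were measured, and in each group 7 of these 8 had a mean above the lower quartile of all clusters.

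**Figure D1:**
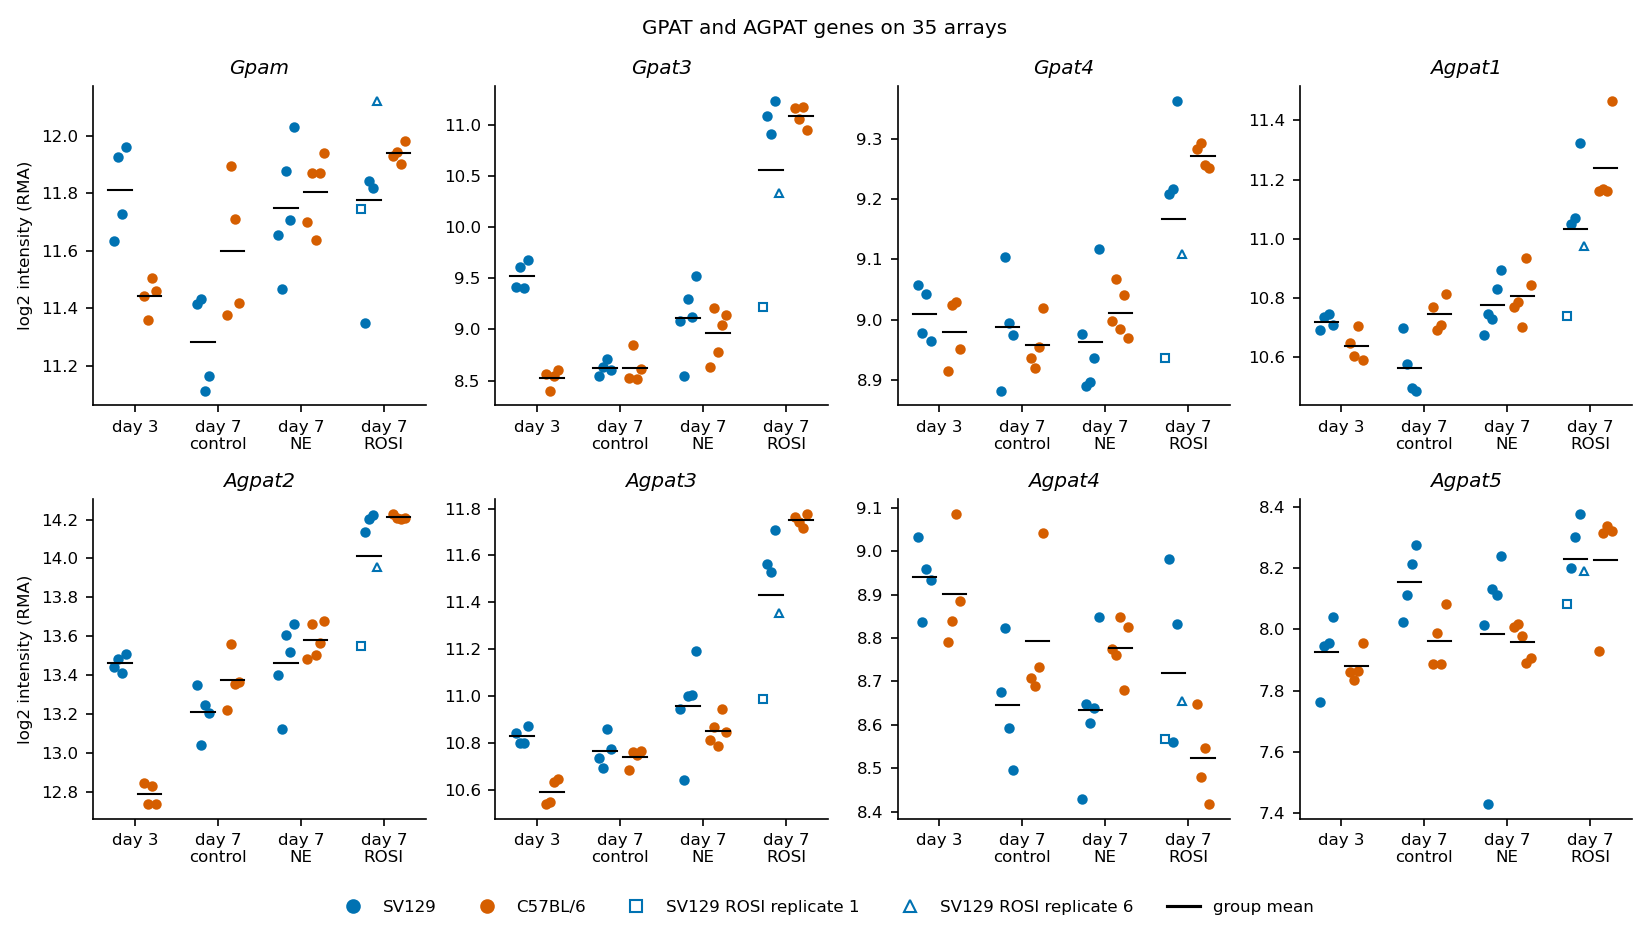
Log2 intensity (RMA) of the 8 genes on 35 arrays, by condition on the horizontal axis and strain by colour. Each point is 1 array, bars are group means, and open symbols mark SV129 ROSI replicates 1 and 6. Gpat3 and Agpat3 lie higher on every ROSI array than on any control array, while Agpat4 overlaps across conditions.

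The first comparison asks how ROSI changed the genes against untreated day 7 cultures. 6 of the 8 members were higher with ROSI, 0 were lower and 2 did not pass the test. Gpat3 rose most (4.54-fold), followed by Agpat3 (1.77-fold) and Agpat2 (1.77-fold), and by Agpat1, Gpam and Gpat4 with smaller changes. Calls were made with limma at a Benjamini-Hochberg adjusted p under 0.01, over all 17958 clusters and with strain as a covariate. By this rule 27.9% of all clusters were called, 2923 higher and 2081 lower. The median change was 0.45 on the log2 scale over the 8 members and 0.01 over all clusters. Without SV129 ROSI replicates 1 and 6 the same number of members was called, 6 higher and 0 lower, beside 34.1% of all clusters.

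Gpat3 gave the widest separation. The SV129 controls read 8.55, 8.63, 8.71 and 8.60, and the C57BL/6 controls 8.53, 8.84, 8.52 and 8.61. The SV129 ROSI arrays read 9.22 (replicate 1), 11.08, 10.91, 11.23 and 10.34 (replicate 6), and the C57BL/6 ROSI arrays 11.17, 11.05, 11.17 and 10.95. Every ROSI array was above every control array, and the 2 lowest ROSI values were those of the arrays that stood apart. The change was 2.18 ± 0.21 (SE, adjusted p = 1.28e-06), larger than that of 99.9% of all clusters. Without SV129 ROSI replicate 1 it was 2.36, a 5.14-fold rise, and without replicates 1 and 6 it was 2.46, a 5.49-fold rise.

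Gpam, the mitochondrial GPAT and a target of insulin and SREBP-1c signalling in liver, changed less. Its controls spanned 11.11 to 11.89 with a median of 11.42, and its ROSI arrays 11.35 to 12.12 with a median of 11.90. The groups overlapped, with 5 of 9 ROSI arrays above the highest control. The rise was 0.42 ± 0.09 (SE, 1.34-fold, adjusted p = 0.00164). SV129 ROSI replicate 2 was the lowest ROSI array for Gpam, and replicate 6 the highest of all 35 arrays at 12.12. Without SV129 control replicates 5 and 6, the lowest controls for Gpam, the rise was 0.34 and the call was lost (adjusted p = 0.0139). Without SV129 ROSI replicates 1 and 6 it was 0.36 (adjusted p = 0.00325). Within each strain Gpam did not pass, at 0.49 in SV129 (adjusted p = 0.0129) and 0.34 in C57BL/6 (adjusted p = 0.074).

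Gpat4, the other GPAT of the endoplasmic reticulum, rose by 0.24 ± 0.05 (SE, 1.18-fold, adjusted p = 0.0011). Its controls spanned 8.88 to 9.10 and its ROSI arrays 8.94 to 9.36, and 8 of 9 ROSI arrays were above the highest control. The array below was SV129 ROSI replicate 1, at 8.94, and without replicates 1 and 6 the rise was 0.30.

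Among the AGPATs, the largest fitted rises were those of Agpat3 and Agpat2. For Agpat3 the SV129 controls read 10.74, 10.69, 10.86 and 10.77 and the C57BL/6 controls 10.69, 10.76, 10.75 and 10.77. Its SV129 ROSI arrays read 10.99 (replicate 1), 11.57, 11.53, 11.71 and 11.36 (replicate 6), and its C57BL/6 ROSI arrays 11.76, 11.74, 11.72 and 11.78. The groups did not overlap, and the rise was 0.83 ± 0.08 (SE, adjusted p = 1.55e-06). Gpat3 and Agpat3 were the 2 members with no overlap between the 9 ROSI and 8 control arrays, against 5.38% of all clusters. Without SV129 ROSI replicate 1 the Agpat3 rise was 0.89, and without replicates 1 and 6 it was 0.93.

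Agpat2, the AGPAT whose loss causes lipodystrophy, rose by 0.82 ± 0.08 (SE, adjusted p = 1.46e-06). Its SV129 controls read 13.35, 13.04, 13.25 and 13.20 and its C57BL/6 controls 13.22, 13.56, 13.36 and 13.36. Its SV129 ROSI arrays read 13.55 (replicate 1), 14.14, 14.20, 14.22 and 13.96 (replicate 6), and its C57BL/6 ROSI arrays 14.23, 14.21, 14.20 and 14.21. The 4 C57BL/6 ROSI arrays were the closest to each other of any group (SD 0.01). They lay near the top of the scale, where the highest cluster of an array read between 14.15 and 14.42. Whether a limit of the scale shortened the Agpat2 rise was not tested. 8 of 9 ROSI arrays exceeded every control, the exception being SV129 ROSI replicate 1, and without that array the rise was 0.88. Without replicates 1 and 6 it was 0.90.

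Agpat1, the gene the study examined for alternative exons, rose by 0.48 ± 0.07 (SE, 1.40-fold, adjusted p = 2.5e-05) as a whole cluster. By RT-qPCR the study found an alternative exon of Agpat1 raised with ROSI and an exon it took as constitutive unchanged. How far that alternative exon made up the rise of the cluster was not tested. Its controls spanned 10.49 to 10.81 with a median of 10.69, and its ROSI arrays 10.74 to 11.47 with a median of 11.16. SV129 ROSI replicate 1 was again the one ROSI array within the control range, and without replicates 1 and 6 the rise was 0.54.

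Agpat4 and Agpat5 did not pass the test. Agpat4 spanned 8.50 to 9.04 in controls and 8.42 to 8.98 with ROSI, a difference of -0.09 (95% confidence interval -0.26 to 0.08). Agpat5, at 7.89 to 8.28 in controls and 7.93 to 8.38 with ROSI, differed by 0.17 (interval 0.03 to 0.30, adjusted p = 0.057). Without SV129 ROSI replicates 1 and 6 the differences were -0.08 for Agpat4 and 0.21 for Agpat5 (adjusted p = 0.0178), and neither passed. The intervals leave room for small changes in both genes.

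**Figure D2:**
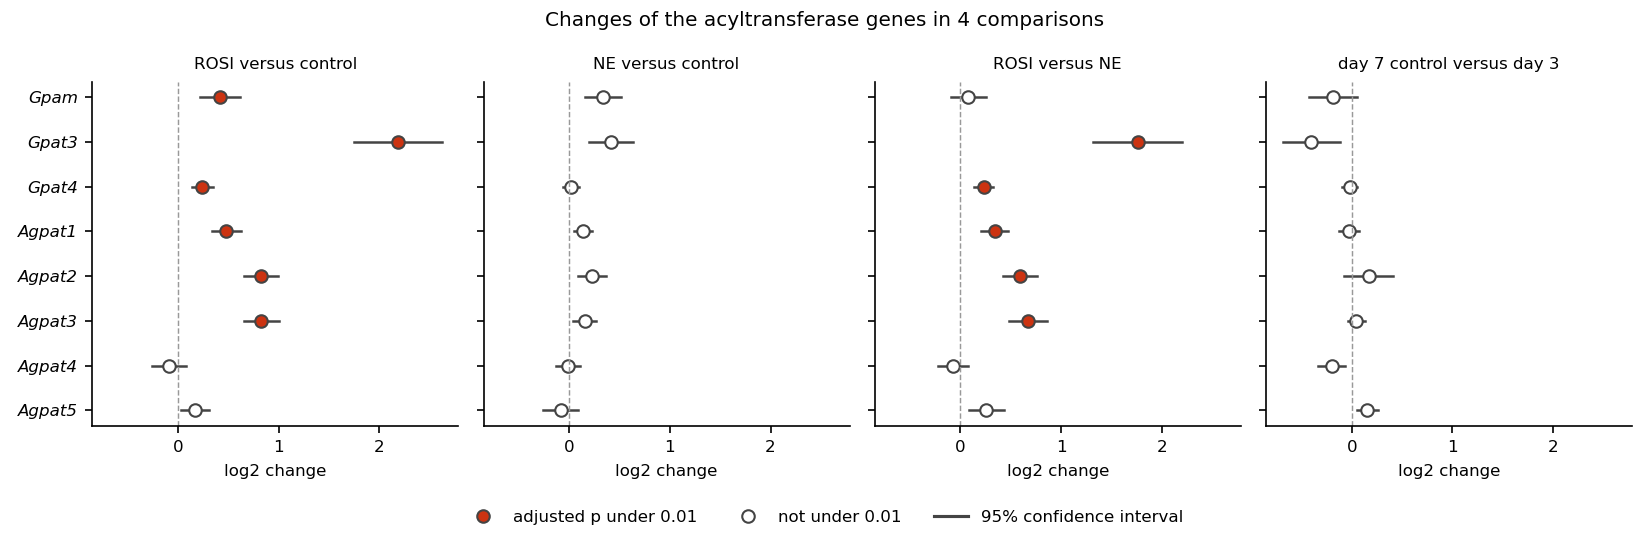
Log2 change of each gene with its 95% confidence interval in 4 comparisons. Filled points passed an adjusted p of 0.01. With ROSI 6 genes were higher than in control and 5 higher than with NE, while no gene passed for NE against control or for day 7 against day 3.

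Within SV129, 4 of the 8 members were higher with ROSI (Gpat3, Agpat1, Agpat2 and Agpat3), beside 10.9% of all clusters called. Gpat3 rose by 1.93 ± 0.28 (SE), Agpat2 by 0.80 ± 0.11 and Agpat3 by 0.66 ± 0.10. Without SV129 ROSI replicate 1 these became 2.27, 0.92 and 0.77, Gpat4 was called as well (adjusted p = 0.00589), and the clusters called rose from 1962 to 3497. Without replicates 1 and 6 they were 2.45, 0.98 and 0.83, with 5 members called beside 23.6% of all clusters. The Agpat1 call (adjusted p = 0.00267) was lost without SV129 control replicate 5 (adjusted p = 0.0114) or replicate 6 (adjusted p = 0.0116). Without both arrays only Agpat2 was called. In that fit Gpat3 was at 1.97 (adjusted p = 0.0112) and Agpat3 at 0.71 (adjusted p = 0.0101), neither below its value with all arrays. Agpat1 was lower, at 0.40 (adjusted p = 0.0547). The share of all clusters called in that fit is not given here.

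Within C57BL/6, 5 members were higher (Gpat3, Gpat4, Agpat1, Agpat2 and Agpat3), beside 20.0% of all clusters. Gpat3 rose by 2.46 ± 0.30 (SE, 5.50-fold), Agpat3 by 1.01 ± 0.11 and Agpat2 by 0.84 ± 0.12. The Gpat4 call (adjusted p = 0.00363) was lost on leaving out C57BL/6 control replicate 2, 3 or 4 or ROSI replicate 2 or 3, with adjusted p from 0.0104 to 0.0122.

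The difference between the strains in the ROSI effect was tested as an interaction. None of the 8 members passed in limma, and 0.00557% of clusters were called. An unadjusted p under 0.05 was found for 1611 of all 17958 clusters and for 2 members. Those 2 were Agpat3 and Agpat4. The Agpat3 rise was larger in C57BL/6 by 0.35 (interval 0.04 to 0.66, adjusted p = 0.534), and by 0.17 without SV129 ROSI replicates 1 and 6. Agpat4 was at -0.34 (interval -0.64 to -0.04, adjusted p = 0.524), and at -0.41 without those arrays. For Gpat3 the strains differed by 0.53 with an interval of -0.34 to 1.39. That value rests on the SV129 arrays that stood apart, since it was 0.01 without replicates 1 and 6.

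The NE cultures ask whether an adrenergic stimulus changes the same genes. In limma 0 of 8 members passed, and 0% of all clusters were called. 5 members had an unadjusted p under 0.05 (Gpat3, Gpam, Agpat2, Agpat1 and Agpat3), all with higher values under NE. Over all clusters 2053 had such a p. The median change over the members was 0.14, against 0.01 for all clusters.

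Gpat3 had the largest difference, 0.41 ± 0.10 (SE, 1.33-fold, adjusted p = 0.0939). Its NE arrays read 9.09, 8.54 (replicate 2), 9.30, 9.12 and 9.52 in SV129 and 8.64, 9.21, 8.78, 9.05 and 9.14 in C57BL/6. 7 of the 10 were above the highest control, and SV129 NE replicate 2 was within the control range. Without SV129 NE replicate 2 the difference was 0.48 and passed (adjusted p = 0.00966), as the only member, and 63 clusters were called in place of 0. That array was nearest to the C57BL/6 control group over all clusters, at a distance of 0.184 against 0.217 from its own group.

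Gpam followed with 0.34 ± 0.09 (SE, 1.26-fold, adjusted p = 0.0996). It spanned 11.47 to 12.03 under NE, with a median of 11.79, and overlapped the controls. Agpat2, Agpat3 and Agpat1 differed by 0.23, 0.15 and 0.14. Gpat4 (0.01, interval -0.06 to 0.09), Agpat4 (-0.01, interval -0.14 to 0.11) and Agpat5 (-0.09, interval -0.26 to 0.09) were near 0, so for Gpat4 a difference above 0.09 lay outside the interval. The NE effect by strain passed for 0 of 8 members in limma (0 with an unadjusted p under 0.05), and 0% of all clusters were called (1747 with such a p).

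Set against each other, ROSI arrays were higher than NE arrays for 5 members (Gpat3, Gpat4, Agpat1, Agpat2 and Agpat3), and 27.8% of all clusters were called. Gpat3 was 1.76 ± 0.21 higher (SE, 3.39-fold, adjusted p = 1.92e-05), Agpat3 0.67 ± 0.09 and Agpat2 0.59 ± 0.08. In each of these 3 genes 8 of 9 ROSI arrays were above the highest NE array, the exception being SV129 ROSI replicate 1. Without replicate 1 the differences were 1.95, 0.74 and 0.65. Without replicates 1 and 6 they were 2.05, 0.78 and 0.68, with 5 members called beside 34.9% of all clusters. Agpat5 was 0.25 higher with ROSI and did not pass (adjusted p = 0.0201). It passed without C57BL/6 ROSI replicate 2 (adjusted p = 0.00799) or SV129 NE replicate 6 (adjusted p = 0.00931). In the same comparison all 5 preadipocyte and fibroblast markers measured were lower with ROSI, 7 of 8 adipocyte markers were higher, and 3 of 4 endothelial markers were higher and 1 lower. Their part in the member values was not tested. Gpam did not pass, with a difference of 0.08 (interval -0.09 to 0.25, adjusted p = 0.511). Gpam is the 1 member that was called for ROSI against control and not for ROSI against NE, and the interval puts the gap between the drugs at 0.25 or less. The ROSI and NE comparisons use the same controls, so their changes are not independent.

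Between day 3 and day 7 in untreated cultures, 0 of 8 members passed with both strains in 1 model, beside 15.3% of all clusters. 3 had an unadjusted p under 0.05 in limma (Gpat3 and Agpat4 lower at day 7, Agpat5 higher). Over all 17958 clusters 6371 had such a p, so the 3 do not set the members apart. The Agpat4 difference was -0.20 ± 0.06 (SE, adjusted p = 0.031), with 6 of 8 day 7 arrays below all day 3 arrays. Without C57BL/6 control replicate 6 it was -0.25 and passed (adjusted p = 0.00357).

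The strains did not change alike over these days. The difference between their day effects passed for Gpat3 and Agpat2, 2 of the 8 members, beside 4.31% of all clusters. Gpat3 fell in SV129, into the range it had in C57BL/6 on both days, and Agpat2 rose in C57BL/6, into a range that overlapped the SV129 controls.

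For Gpat3 the SV129 arrays read 9.42, 9.61, 9.40 and 9.67 at day 3, against 8.55 to 8.71 in the day 7 controls. The C57BL/6 arrays read 8.56, 8.40, 8.55 and 8.60 at day 3, and the day 7 controls 8.52 to 8.84. Only SV129 at day 3 stood apart among these 4 groups, with no overlap with the other 3. The share of all clusters separated in this way was not counted, for Gpat3 here or for Agpat2 and Gpam below. The fall in SV129 was -0.90 ± 0.08 (SE, adjusted p = 1.34e-06), and C57BL/6 changed by 0.10 ± 0.08 (adjusted p = 0.488). The interaction, the C57BL/6 change minus the SV129 change, was 1.00 ± 0.11 (SE, adjusted p = 5.63e-05). With all 35 arrays in 1 model the same difference did not pass (adjusted p = 0.109).

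For Agpat2 the C57BL/6 arrays read 12.84, 12.74, 12.83 and 12.74 at day 3, below every other array in the series. SV129 read 13.44, 13.48, 13.41 and 13.51 at day 3, above all 4 of its day 7 controls (13.04 to 13.35). In C57BL/6 the gene rose by 0.59 ± 0.07 (SE, adjusted p = 4.81e-05), and in SV129 it changed by -0.25 ± 0.07 (adjusted p = 0.0123). The interaction was 0.84 ± 0.10 (SE, adjusted p = 7.84e-05), and it also passed with all 35 arrays in the model (adjusted p = 0.00379). At day 3 itself Agpat2 was lower in C57BL/6 by 0.67 (adjusted p = 0.000598), as 1 of 8 members, with 0.785% of all clusters called. Gpat3 was at -0.99 in that comparison (adjusted p = 0.0221) and did not pass. These values share 1 variance over all 35 arrays. With the 8 day 3 arrays alone 4 members were called, all lower in C57BL/6, beside 8.26% of all clusters. They were Agpat2, Gpat3 (adjusted p = 3.47e-05), Agpat3 (-0.24, adjusted p = 0.00345) and Gpam (-0.37, adjusted p = 0.00715).

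Gpam pointed the same way without passing. Its SV129 arrays read 11.64, 11.93, 11.73 and 11.96 at day 3 and 11.42, 11.43, 11.11 and 11.17 at day 7, with no overlap. Its C57BL/6 values were 11.36 to 11.51 at day 3 and 11.38 to 11.89 at day 7. The interaction was 0.69 ± 0.16 (SE, adjusted p = 0.0101). Within SV129, Gpat3 and Gpam were the 2 members called, both lower at day 7, beside 18.3% of all clusters. The Gpam fall was -0.53 ± 0.11 (SE, adjusted p = 0.00174), and was not called without SV129 control replicates 5 and 6 (-0.39, adjusted p = 0.0523). Without SV129 control replicate 1, 5 members were called in SV129, beside 21.1% of all clusters. Within C57BL/6, Agpat2 was the 1 member called, beside 7.37% of all clusters.

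Leaving out SV129 control replicate 1, which was nearer to the C57BL/6 control group (distance 0.137) than to its own (0.178), added Gpam (adjusted p = 0.00708) and Agpat1 (adjusted p = 0.00319) to the interaction calls, and raised the clusters called from 774 to 1308 (7.28%). Gpam alone also passed on leaving out SV129 day 3 replicate 1, SV129 control replicate 4 or C57BL/6 control replicate 2 or 6, with adjusted p from 0.00573 to 0.00909. Agpat1 was at 0.26 (adjusted p = 0.0227) and Agpat3 at 0.21 (adjusted p = 0.0392) with all arrays. Agpat4 (0.19), Agpat5 (-0.15) and Gpat4 (0.00) did not pass either, with intervals that include 0.

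**Figure D3:**
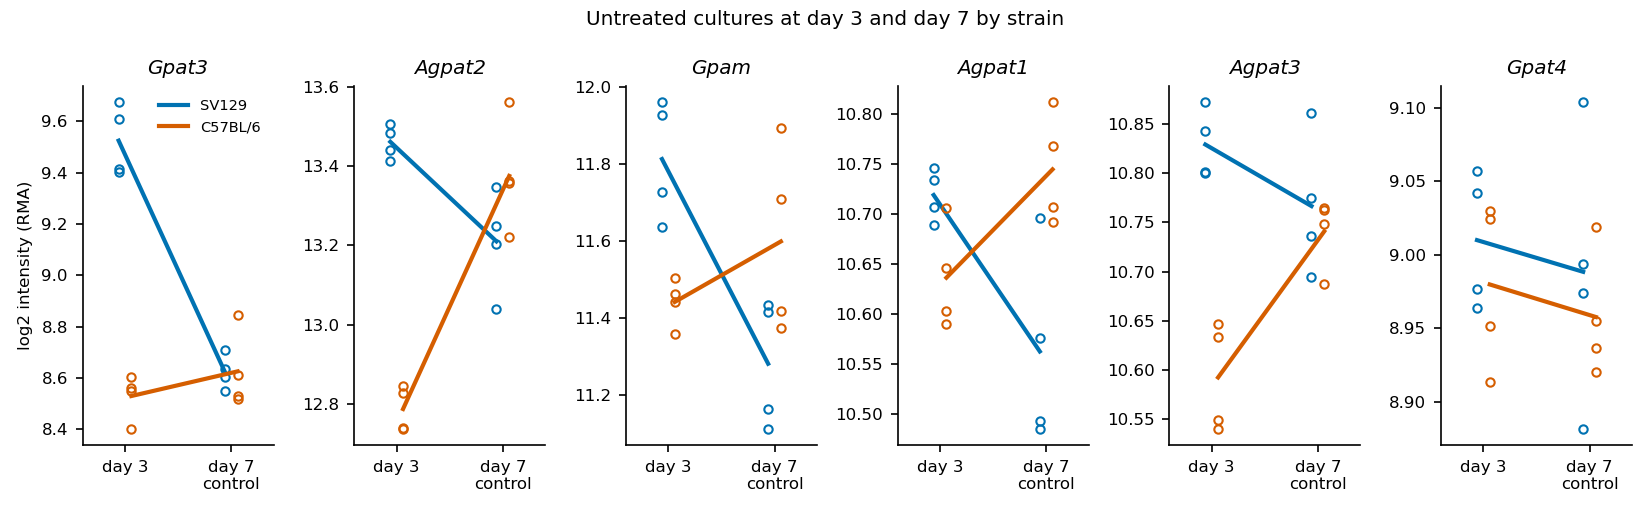
Log2 intensity (RMA) of 6 members in untreated cultures at day 3 and day 7, with open points for arrays (4 per group) and lines joining group means. SV129 Gpat3 drops from a mean of 9.52 to 8.62 and C57BL/6 Agpat2 climbs from 12.79 to 13.37, and the interaction passed for these 2 genes.

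The adipocyte markers moved with these values. 6 of the 8 passed the same interaction, all higher. Their mean over the list spanned 10.62 to 10.76 on SV129 day 3 arrays and 10.14 to 10.25 on C57BL/6 day 3 arrays. It spanned 9.99 to 10.37 in SV129 controls and 10.31 to 10.70 in C57BL/6 controls. The list also rose with ROSI (7 of 8 higher, Lep not called), to 10.76 to 11.63 in SV129 and 11.65 to 11.71 in C57BL/6. Of 5 preadipocyte and fibroblast markers 3 were called lower with ROSI, and Cd34 (-0.62) and Thy1 (-0.68) were lower without passing. Of 7 macrophage and leukocyte markers, 6 were called higher in the day 7 controls than at day 3, and Ptprc was higher without passing (0.23). Their list means at day 3 were 7.55 to 7.70 in SV129 and 7.84 to 8.06 in C57BL/6. In controls they were 8.45 to 8.55 in SV129 and 8.61 to 8.90 in C57BL/6. Averaged over conditions, 6 of these 7 were higher in C57BL/6 than in SV129, and 2 of 5 preadipocyte and fibroblast markers were lower. With ROSI against control 1 of those 7 was lower and 6 were not called. With NE against control 0 of 8 adipocyte markers passed (list median 0.35), and 0 of the 7 macrophage and leukocyte markers (-0.28). The 5 preadipocyte and fibroblast markers had a list median of 0.02 under NE, and 0 passed. The part of these markers in the acyltransferase values was not tested. In whole cultures fewer cells of a type and less RNA per cell cannot be told apart.

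Averaged over conditions, no member passed the test between strains. In limma 0 of 8 were called, beside 4.22% of all clusters. An unadjusted p under 0.05 was found for 0 members and for 3727 clusters. The differences ran from -0.14 for Gpat3 (interval -0.43 to 0.16) to 0.08 for Agpat1 (interval 0.00 to 0.17).

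Over all 8 groups, C57BL/6 ROSI had the highest mean for 6 members. For Gpat3 the order ran from C57BL/6 ROSI (11.08 ± 0.11, SD, n = 4) through SV129 ROSI (10.56 ± 0.82, n = 5) and SV129 day 3 (9.52 ± 0.14, n = 4) to C57BL/6 day 3 (8.53 ± 0.09, n = 4). No step between neighbouring groups in that order was free of overlap between arrays. Without SV129 ROSI replicate 1 the SV129 ROSI mean was 10.89 ± 0.39 (SD, n = 4), and its lowest array, 10.34, lay above the highest SV129 day 3 array, 9.67. Without that array the SV129 ROSI group was also clear of the group next below it for Gpat4, Agpat1, Agpat2 and Agpat3. The share of all clusters with such clear steps was not counted. Whether they are more common among the members was not tested. For Agpat2 the lowest group, C57BL/6 day 3 (12.79 ± 0.06, SD, n = 4), lay clear of its neighbour, SV129 control (13.21 ± 0.13, n = 4). For Agpat3 both ends stood clear, with C57BL/6 ROSI at 11.75 ± 0.03 (SD, n = 4) above SV129 ROSI, and C57BL/6 day 3 at 10.59 ± 0.06 (n = 4) below the C57BL/6 controls. Gpam had SV129 day 3 (11.81 ± 0.16, SD, n = 4) next to the C57BL/6 ROSI group (11.94 ± 0.03, n = 4) and no clear step.

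Agpat4 had another order, though it passed none of the main tests. Its highest means were those of the day 3 groups, 8.94 ± 0.08 (SD, n = 4) in SV129 and 8.90 ± 0.13 (n = 4) in C57BL/6, and its lowest was C57BL/6 ROSI at 8.52 ± 0.10 (n = 4). In SV129 the ROSI mean, 8.72 ± 0.18 (n = 5), lay above the control mean, 8.65 ± 0.14 (n = 4). Its group means differed by at most 0.42, against a pooled within-group SD of 0.13. Agpat5 and Gpat4 differed by at most 0.35 and 0.31 between group means, against pooled within-group SDs of 0.16 and 0.08.

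Across the 35 arrays the members that rose with ROSI varied together, given here as a description of arrays that share the group differences. Pearson's r was 0.96 for Gpat3 and Agpat3, 0.92 for Agpat2 and Agpat3, and 0.90 for Gpat3 and Agpat2. After group means were removed these were 0.91, 0.86 and 0.88. Without SV129 ROSI replicates 1 and 6, a setting chosen after seeing the data, the within-group values were 0.79, 0.72 and 0.78 over 33 arrays. Gpam followed Gpat3 less closely, at 0.55 over all arrays and 0.18 within groups. Agpat4 was negative with all 7 other members over all arrays, from -0.39 with Agpat3 to -0.11 with Gpat4. After group means were removed its r was positive with 6 of the 7, from 0.01 with Agpat5 to 0.51 with Gpat4, and -0.15 with Gpam.

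The genes most like each member over the 35 arrays were named by rank of r. They were Aqp7, which encodes a glycerol channel of adipocytes (r = 0.993), Atpaf2 (0.990) and Idh3a (0.989) for Gpat3. For Agpat2 they were Pnpla2, the triglyceride lipase (0.985), Gpd1, which makes glycerol-3-phosphate (0.975), and Pcx, pyruvate carboxylase (0.973). Agpat3 was followed by Hsdl2 (0.990), Dnajc15 (0.986) and Bcl2l13 (0.986). Gpam was led by Slc1a3 (0.915), the adipokine gene Retn (0.868) and Fndc5 (0.851). Agpat1 was followed by Dhrs11 (0.955), Psen2 (0.955) and Slc25a35 (0.953). Gpat4 was followed by Pemt, which methylates phosphatidylethanolamine (0.937), Prelid3b (0.933) and Pop5 (0.932). The values were lower for Agpat5 with Dhx36 (0.824), Adh5 (0.819) and Lyrm4 (0.818), and for Agpat4 with Gusb (0.806), Dctd (0.788) and Trim2 (0.778).

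Around the acyltransferases, the steps that supply glycerol-3-phosphate and finish triglyceride were in part higher with ROSI. Of 15 measured triglyceride pathway genes 6 were higher, 2 were lower and 7 did not pass, with a list median of -0.02 against 0.01 for all clusters. The largest rises were Gpd1 (2.00), Dgat1, which adds the last fatty acid (1.67), and Lpin1, a phosphatidic acid phosphatase (1.31). The 2 that were lower, Plpp3 (-0.33) and Lpin3 (-0.17), encode other phosphatases and are named here after their values were seen. In the interaction of day and strain 4 of the 15 passed, all higher, led by Gpd1 (2.82-fold), Dgat1 (2.34-fold) and Dgat2 (2.26-fold). For NE against control 0 of 15 passed in limma.

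Of 8 measured related acyltransferases 3 were higher and 2 lower with ROSI, led by Lpcat3, which acylates lysophospholipids (0.80). Of 10 measured genes that make phospholipids 4 were higher and 1 lower, with the largest rises in Chpt1 (1.08), which makes phosphatidylcholine, and Crls1 (0.74), which makes cardiolipin. Transcription factors linked to the pathway changed in 7 of 7 cases, 6 of them higher, led by Ppara (2.46), Nr1h3 (0.96) and Cebpa (0.95). In the interaction 5 of these 7 passed, led by Cebpa (0.83), Mlxipl, which responds to carbohydrate (0.77), and Nr1h3 (0.67).

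**Figure D4:**
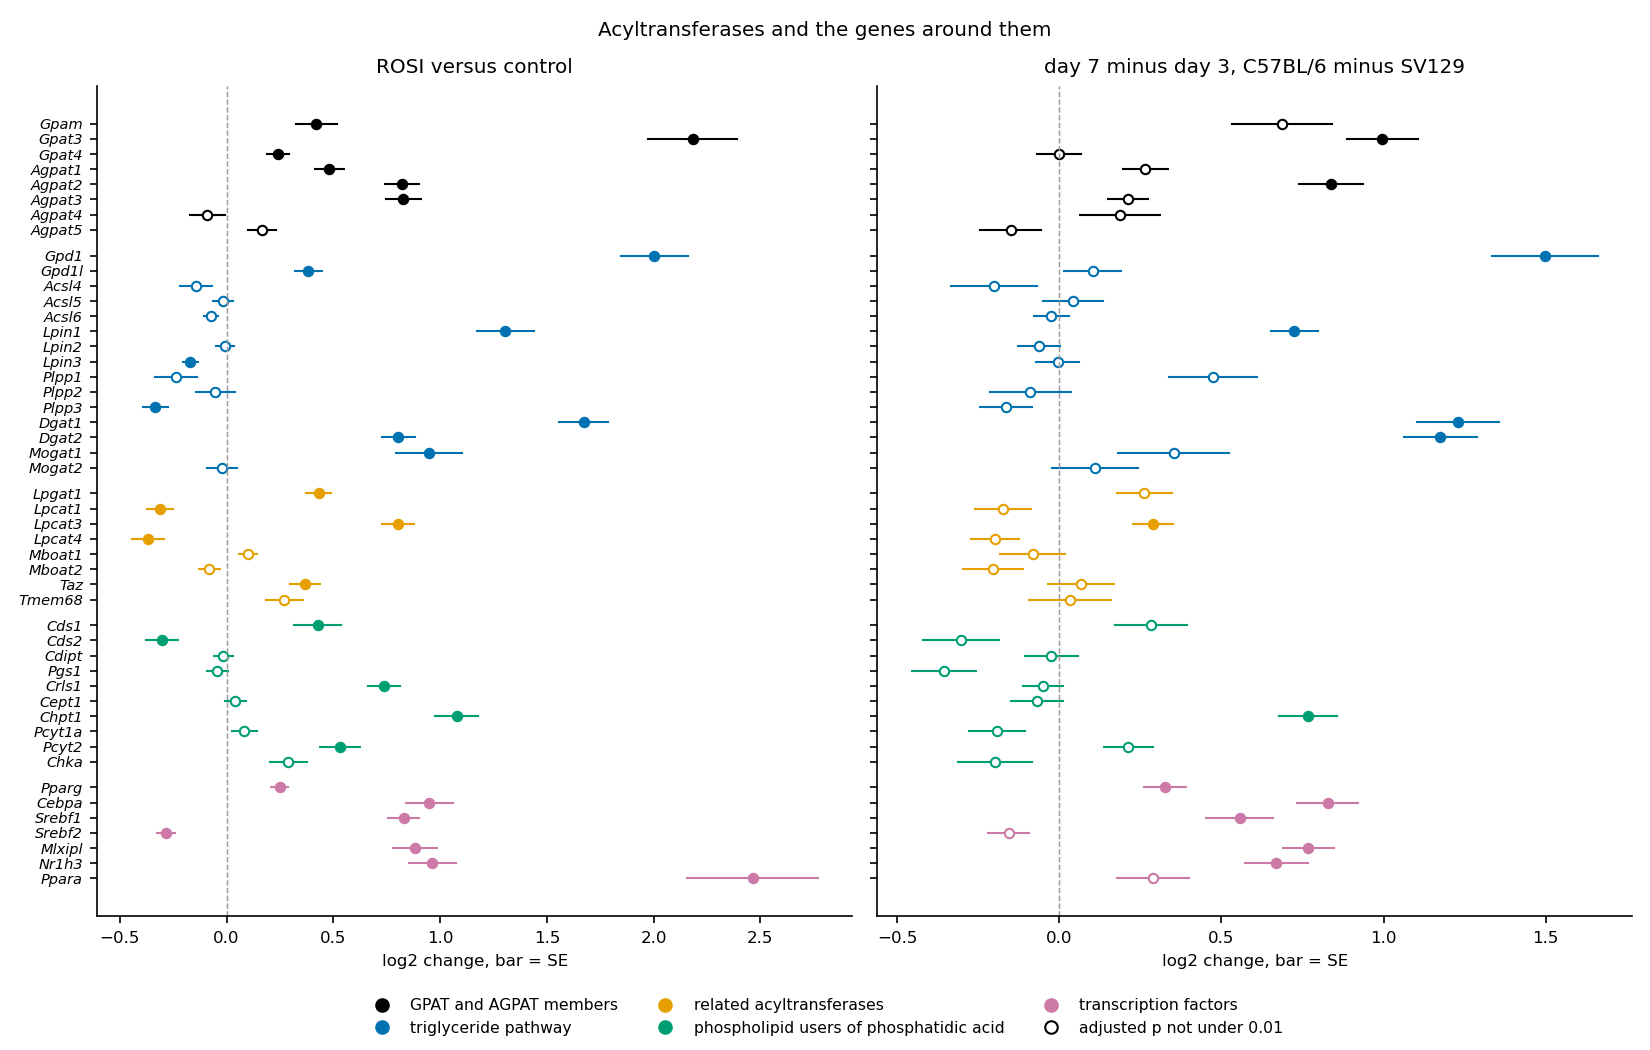
Log2 change with its SE for the 8 members and 40 measured genes around them, in ROSI against control and in the day 7 minus day 3 change of C57BL/6 minus that of SV129. Filled points passed an adjusted p of 0.01. Gpat3 (2.18), Gpd1 (2.00) and Dgat1 (1.67) lie far to the right with ROSI, and Gpd1 and Dgat1 in the interaction.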

How the data were processed

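RNA from 35 cultures was hybridised to Mouse Exon 1.0 ST arrays, 1 array per culture. The deposited values are log2 intensities per transcript cluster, which the authors made by RMA in Affymetrix Power Tools. RMA corrects background, brings arrays to 1 distribution and summarises the probes of a cluster. The sources used here give no tool version and no genome build for these values. Values were used without further scaling. Groups and replicate numbers came from the sample titles and characteristics. Where nothing says that replicates are separate animals, p-values measure the spread between cultures. Arrays have no depth, so their number and spread limit the precision.

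Two-sided tests used limma 3.58.1 in R 4.3.3 on all clusters, with eBayes variances and a Benjamini-Hochberg adjusted p under 0.01. The study's methods use limma at this rate for a filter on exons, so this test of whole clusters is not a step of the study. Each model held the arrays compared, with strain as a covariate. The interactions and within-strain effects came from 1 mean per group, and the strain comparisons from all 35 arrays. Other software was the R package data.table (version 1.17.8), Python 3.11.15 and, for the plots, matplotlib 3.10.9. The fits were tested on simulated data. The members, the gene and marker lists and the tests were chosen with earlier results of these data known. Named were all 8 members, the 3 clusters with the highest Pearson r per member, and up to 3 called genes per list by size of change. List genes with several clusters used the brightest. Alternatives changed the threshold, minimum change, arrays and terms in the model, moderation, weights, scaling, dim-cluster filter, replicate block and arrays left out.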

Additional observations from a re-analysis of the deposited data

Results flagged for a closer look

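Of 64 sets of arrays (8 genes in 8 groups), 4 held an array far from the others by Dixon's test, where chance gives about 1 in 20. Agpat1 read 11.47 on C57BL/6 ROSI replicate 6, against 11.16 to 11.17 on the other 3 arrays. Agpat4 read 9.04 on C57BL/6 control replicate 6, against 8.69 to 8.73 on the others. Agpat5 read 7.93 on C57BL/6 ROSI replicate 2, against 8.32 to 8.34 on the others. Agpat5 read 7.43 on SV129 NE replicate 2, against 8.01 to 8.24 on the others.

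The change from day 3 to day 7 differed between the strains for Gpat3, by 1.00 on the log2 scale (adjusted p = 5.63e-05, limma), and for Agpat2, by 0.84 (adjusted p = 7.84e-05). All 4 SV129 day 3 arrays were above all 4 SV129 controls in both genes, and in C57BL/6 all 4 control arrays were above all 4 day 3 arrays for Agpat2. The share of all clusters separated in this way within a strain was not counted. For the day change, 18.3% of all clusters were called in SV129 and 7.37% in C57BL/6.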

How the results depend on the processing

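Values are log2 differences or numbers of the 8 members called. Where no share of all clusters stands beside a number, it does not compare the members with other clusters. With a minimum change of 1.5-fold, 3 members stayed called for ROSI against control (Gpat3, Agpat2 and Agpat3) and 3 for ROSI against NE. At an adjusted p under 0.05, 3 were called for day 7 against day 3 and 5 for the interaction of day and strain. For the days, quantile normalization and median centring each called 1 (Agpat4). At day 3 itself, 4 members differed between strains with the day 3 arrays alone (8.26% of all clusters), against 1 (0.785%). For the interaction, all 35 arrays in 1 model called 1 and array weights 4. Leaving out each array in turn gave 0 to 1 members for NE against control and for the days, and 2 to 4 for the interaction. The numbers for the strain comparison and both drug interactions stayed at 0 in every setting run. Over all clusters, leaving out an array gave 503 to 1308 interaction calls, 1010 to 3497 for ROSI in SV129 and 32 to 86 for the strains at day 3.

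With the replicate number as a block, 0 members and 0 clusters were called for ROSI against NE (members' adjusted p from 0.0123 to 0.0503). For ROSI in SV129 the block called 0 members and 1 cluster. The block lowered the clusters called for ROSI against control to 2863, with 5 members (Gpam lost, adjusted p = 0.0104). For the interaction of day and strain it called 2 members and 245 clusters. Same-numbered arrays correlated between -0.31 and 0.30 after group means were removed, so the numbers are not taken as pairs.

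Of 26 gene results that passed, 0 changed sign and 10 passed in every setting. Of 78 that did not pass, 13 changed sign in some setting, with values after the change between -0.1388 and 0.0992. Array weights gave 0.0006 for Agpat4 under NE, -0.0093 for Gpam between strains, and -0.0464 for Agpat1 and -0.0007 for Agpat2 in the ROSI interaction. Median centring gave -0.0028 for Gpat4 under NE. Quantile normalization gave -0.0110 for Agpat1 in the ROSI interaction and 0.0050 for Gpat4 in the day interaction. The block gave 0.0057 for Agpat4 in the NE interaction and 0.0490 for Gpat4 in the day interaction. Without SV129 ROSI replicates 1 and 6, the ROSI interaction was -0.0909 for Agpat1 and -0.1388 for Agpat2. Without SV129 control replicates 5 and 6, Agpat1 was 0.0317 between days, Gpam -0.0008, Agpat3 0.0014 and Agpat4 -0.0121 between strains, and Agpat4 0.0992 in the NE interaction and -0.0297 for ROSI in SV129. Leaving out each array, NE against control ran from -0.0019 to 0.0353 for Gpat4 and from -0.0396 to 0.0241 for Agpat4. The strain difference ran from -0.0430 to 0.0101 for Agpat3 and from -0.0057 to 0.0366 for Agpat4. The ROSI interaction ran from -0.0510 to 0.0984 for Agpat1 and from -0.0814 to 0.0966 for Agpat2. The NE interaction ran from -0.1323 to 0.0144 for Agpat2 and from -0.0615 to 0.0801 for Agpat4. For Gpat4 the day interaction ran from -0.0362 to 0.0379 and the SV129 day change from -0.0601 to 0.0140. The cause of these moves was not tested. A filter on dim clusters left out 4490 clusters and 0 members. With 4 or 5 arrays in a group, small differences are not resolved.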
